A study of Mus musculus with 6 samples.

Results

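Cytosolic ribosomal protein genes encode the protein part of the ribosomes that translate nuclear messages. The genes were taken by name: protein-coding rows whose mouse symbol is Rpl or Rps followed by a number (with an optional a, x, l or y), together with Rplp0, Rplp1, Rplp2 and Rpsa. The rule found 81 of the 52550 rows, of which 50 belong to the large (60S) and 31 to the small (40S) subunit. It passes over ribosomal genes with other names, among them Fau, Rack1 and Rps3a1, which were counted separately. Whole hearts of 6 C57BL/6 mice were sequenced, from 3 wild-type mice (WT) and 3 mice with the genotype lncRNA-DRR-/- (KO), a deletion of a long noncoding RNA. All 6 mice had a permanent ligation of the left anterior descending coronary artery at 8 weeks of age, which causes a myocardial infarction, and hearts were collected at 10 weeks of age. The comparison is therefore KO against WT in the infarcted heart 2 weeks after surgery, with no uninjured heart beside it. The labels do not give the cell types in which the deletion acts, and the deleted RNA itself was not analysed here.

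Each ribosomal protein is needed in equal number, since a ribosome holds a single copy of nearly all of them, and an excess of free protein is degraded. Their messages are long-lived and abundant, and most begin with a C followed by a run of C and T bases, the 5′ terminal oligopyrimidine (TOP) motif, through which LARP1 and the kinase mTORC1 set how well they are translated. Output is thus controlled largely at translation, which an RNA measurement does not read. In the heart, ribosome production rises in hypertrophic growth, and striated muscle makes RPL3L, a muscle paralogue of RPL3.

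The start regions of members that the results turn on are shown for this motif. In RefSeq (GRCm38.p6), 61 of the 81 members had a start region, and a stretch from 10 bases before to 50 after each annotated start was searched for a run of at least 8 C or T bases on the gene's own strand. Such a run was found in 44 of the 61 members (72.1%), against 24.0% of all 27025 RefSeq genes with a start region. It was found in 23.5% of the tested genes among them and 15.9% of 69 mitochondrial ribosomal protein genes. A run need not begin with a C or lie at the start, so these are not shares of genes with a TOP motif. The letters CTTTC, which can lie inside such a run, were found on the gene's own strand in 45.9% of the members and 8.48% of all those genes, and on either strand in 52.5% and 16.7%. In the sequences, 30 bases each and read 5′ to 3′ on the gene's strand, capitals mark the run. Rps6, Rps10 and Rpl13a have it at or within 3 bases of the annotated start, as does Rps27. Rpl41 has it 41 bases downstream of the annotated start. Rps19 has it 40 bases downstream of the start shown, and its 2 other annotated starts have no such run. Rps27l has no such run at the start shown. Rpl3l has a run 32 bases downstream of one annotated start and none at the other.
Rps6, chr4:86857347-86857376, minus strand: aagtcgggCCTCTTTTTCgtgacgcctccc
Rps10, chr17:27635226-27635255, minus strand: cgcgcacgCCCCTTCCTTTCCagcctccgc
Rpl13a, chr7:45128722-45128751, minus strand: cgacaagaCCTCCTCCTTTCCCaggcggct
Rpl41, chr10:128549119-128549148, minus strand: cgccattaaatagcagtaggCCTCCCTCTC
Rps19, chr7:24884612-24884641, plus strand: cgcccgggaaaccccgtcgTTCCCTTTCCC
Rps27, chr3:90213629-90213658, minus strand: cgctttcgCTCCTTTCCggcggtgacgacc
Rps27l, chr9:66946081-66946110, plus strand: ccgccgcctctatcccggaagttgctgagg
Rpl3l, upstream start, chr17:24727846-24727875, plus strand: tggtggggaggCCCCTTCCTaacctgcagg
Rpl3l, downstream start, chr17:24732680-24732709, plus strand: gctacagtgccccaaatgtcctgaaaggct

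The values were FPKM (fragments normalised for transcript length and library size), here divided by a scaling factor per library and called scaled FPKM. The approximate depth lay between 5189414 and 9398496 fragments, and 14299 to 14869 genes reached an FPKM of 0.5 in a library. KO replicate 3 stood apart in Xist, the RNA that coats the inactive X chromosome of females, with 25.6 FPKM as deposited against at most 0.0742 in the other 5 libraries. The labels give no sex. A gene is said to be called where its limma p, adjusted over all tested genes, was under 0.05. All 12 cardiomyocyte markers were measured, with summed scaled FPKM of 16548 to 27923 in WT and 18020 to 26803 in KO hearts, and none was at 0 in all libraries. By their means 11 of the 12 were lower in KO, with a median log2 difference of -0.12 and none called. Of the other marker lists, 8 of 9 fibroblast genes were higher in KO by their means and none was called, and all 8 neutrophil genes were lower with 1 called. Lower by their means, with none called, were 8 of 10 macrophage, 5 of 5 tested T and NK cell, 5 of 5 tested B and plasma cell and 5 of 5 erythroid genes. Higher by their means, again with none called, were 6 of 8 endothelial, 5 of 7 mural and 8 of 9 proliferation genes. Among all tested genes 49.3% were higher by their means, 0.273% were called higher and 0.102% called lower. What the mix of cells adds to the ribosomal protein values was not tested, and in a whole heart fewer cells of a type cannot be told apart from less RNA per cell.

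Ribosomal protein genes were among the abundant messages of the infarcted heart, and they spanned a 59.6-fold range of scaled FPKM, a measure per transcript length. Of the 81 members, 79 were tested, the others missing the minimum of 0.5 FPKM in 3 libraries. Rpl10l, a copy of Rpl10 best known from testis, was listed at 0 in all 6 libraries. Rpl39l was listed at 0, 0 and 0.244 in WT replicates 1 to 3 and at 0.179, 0 and 0.360 in KO replicates 1 to 3. The mean over 6 libraries was above 100 scaled FPKM for 35 tested members, between 20 and 100 for 41 and below 20 for 3. The median was 79.1 over all tested members, 97.3 for the large and 77.1 for the small subunit.

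The top of the order was held by Rps15, a protein of the small-subunit head, with 442, 422 and 492 scaled FPKM in WT replicates 1 to 3 and 545, 422 and 565 in KO replicates 1 to 3. Rpl23a, at the exit of the peptide tunnel, followed with 425, 367 and 379 in WT and 419, 331 and 494 in KO. Rplp0, the base of the large-subunit stalk, had 424, 357 and 354 in WT and 392, 336 and 430 in KO. Values of these 3 genes overlapped across hearts, but within every heart Rps15 was the highest of the 3. Rpl23a lay above Rplp0 except in KO replicate 2, and in WT replicate 1 the 2 were nearly equal. The bottom was held by Rps19, in which mutations cause Diamond-Blackfan anaemia, with 7.44, 7.50 and 7.07 in WT and 9.09, 7.62 and 9.70 in KO. Rps13 followed with 13.9, 17.3 and 17.8 in WT and 19.7, 13.4 and 16.9 in KO, and Rps15a with 23.2, 17.2 and 15.9 in WT and 20.3, 14.8 and 19.3 in KO. Rps13 and Rps15a overlapped each other, while every Rps19 value lay below every value of both. Proteins needed in equal number were thus listed at unequal FPKM.

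Ribosomal protein genes have many processed copies in the genome, and reads of a gene and of a near-identical copy cannot be told apart with certainty. At 95% identity over at least 80% of the coding sequence, 75 of the 81 members had at least 1 annotated copy, with a median of 5, a maximum of 57 (Rpl21) and 10 or more for 17 members. For 13 members the FPKM as deposited under the copies came to over 20% of the member's own. The members without copies included Rpl3l, Rpl39l, Rps27l, Rpl8 and Rps3. Across the 79 tested members, Spearman's rho of scaled FPKM was 0.034 with the number of copies and 0.30 with coding length, as a description across genes, which are not independent replicates. The 291 rows annotated as Rpl or Rps pseudogenes summed to 333, 279 and 314 scaled FPKM in WT replicates 1 to 3 and to 330, 274 and 359 in KO replicates 1 to 3.

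**Figure D1:**
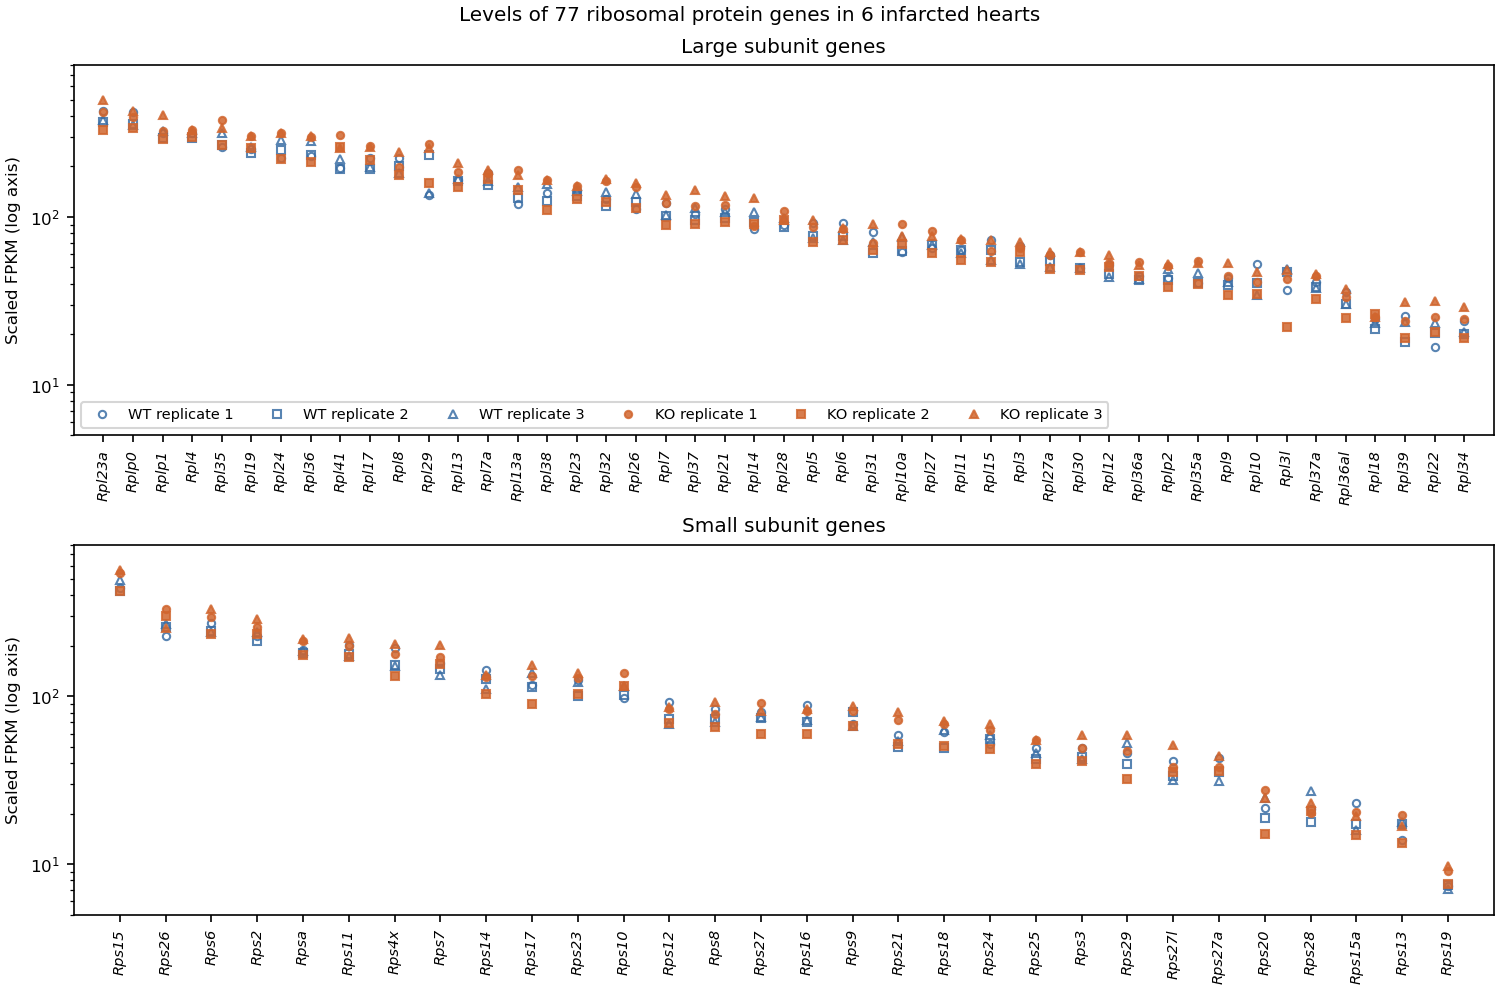
Scaled FPKM (log axis) of 77 of the 79 tested ribosomal protein genes in each of 6 libraries, ordered by mean within each subunit, with WT as open and KO as filled symbols whose shape gives the replicate. Levels run from 8.07 (Rps19) to 481 (Rps15) as means over 6 libraries, and for 32 of the genes drawn KO replicate 3 is the highest and KO replicate 2 the lowest symbol.

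No ribosomal protein gene was called between genotypes, although most had a slightly higher mean in KO. By limma with Benjamini-Hochberg adjustment over 14656 tested genes, 0 of 79 members had an adjusted p under 0.05 in either direction, where 0.273% of all tested genes were called higher and 0.102% lower. The lowest adjusted p of a member was 0.423. At an unadjusted p under 0.05, 1 member was higher (Rpl41) and 0 were lower, against a background of 3.8% and 4.68%. By the sign of the difference alone, 69 of 79 members were higher in KO, against 49.3% of all tested genes. Their median log2 difference (KO minus WT) was 0.11, against -0.0042 for all tested genes, and the members ranged from -0.30 (Rpl3l) to 0.45 (Rpl29). The median stayed between 0.096 and 0.11 under the other scalings, with 67 to 69 members higher. The 95% interval lay between -1 and 1 on the log2 scale for 78 of 79 members, the exception being Rpl29 with an upper bound of 1.12, and between -0.5 and 0.5 for 42. Differences of a 2-fold change were thus outside nearly all intervals. Apart from those 42 members, the intervals reached past a log2 difference of 0.5 in size.

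How many members were higher depended on which KO hearts were counted. Without KO replicate 3 the median fell to 0.013 and 42 of 79 members were higher, and without KO replicate 2 it was 0.24, with 78 members higher and 15 at an unadjusted limma p under 0.05, where 4.49% of all genes tested in that fit were higher at that p. In neither fit was a member called. Rows of pseudogenes had a like median difference of 0.12 over the 60 that were tested, of which 39 were higher and 0 were called, with 5 at an unadjusted p under 0.05 in limma, where 49.3% of all tested genes were higher and 8.48% reached that p in either direction.

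**Figure D2:**
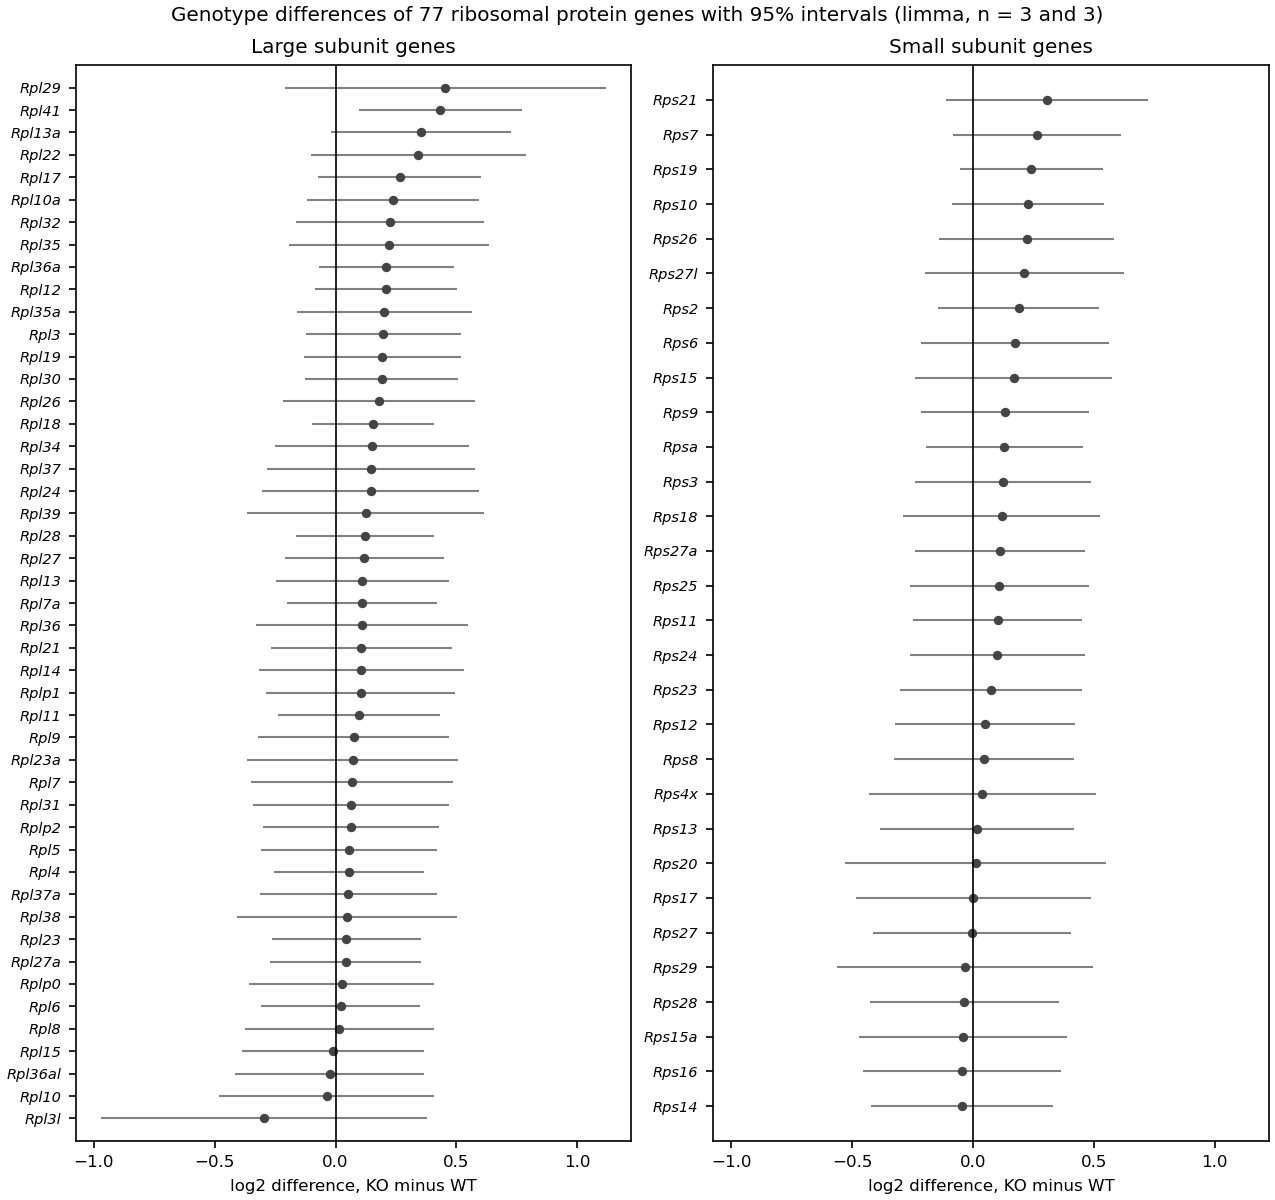
Log2 difference of scaled FPKM (KO minus WT) of 77 of the 79 tested ribosomal protein genes with their 95% intervals from limma, 3 libraries against 3, ordered by size. Most points lie right of 0, and the interval holds 0 for 76 of the 77 genes drawn, all except Rpl41.

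In the large subunit, 44 of 48 tested members were higher in KO by their means, with a median log2 difference of 0.11. Rpl41, the shortest ribosomal protein, had 195, 193 and 222 scaled FPKM in WT replicates 1 to 3 and 309, 261 and 258 in KO replicates 1 to 3. All KO values lay above all WT values, and the log2 difference was 0.43 ± 0.14 (SE, n = 3 and 3, limma adjusted p = 0.423). It is also a gene with 4 near-identical copies, whose summed FPKM came to 10.1% of its own. Rpl13a, which also has a role outside the ribosome in silencing inflammatory messages, had 119, 130 and 152 in WT and 189, 145 and 178 in KO. Its groups overlapped, because KO replicate 2 lay below WT replicate 3, and the log2 difference was 0.35 ± 0.16 (limma adjusted p = 0.623). Rpl17, at the tunnel exit, had 224, 194 and 199 in WT and 263, 219 and 261 in KO, where KO replicate 2 lay below WT replicate 1 (0.27 ± 0.14, limma adjusted p = 0.700). Rpl29 had the highest difference, with 134, 233 and 139 in WT and 271, 160 and 259 in KO. It was high in WT replicate 2 and low in KO replicate 2, so the groups overlapped (0.45 ± 0.28, limma adjusted p = 0.752). Rpl29 lies outside the rule for named genes and was chosen after its values were seen.

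The stalk, which recruits and activates the elongation factors, showed no separation of genotypes. Rplp0 differed by 0.03 ± 0.16 and Rplp1 by 0.11 ± 0.17, from 316, 294 and 326 scaled FPKM in WT and 324, 289 and 403 in KO. Rplp2 had 43.1, 41.8 and 49.0 in WT and 50.6, 38.0 and 52.5 in KO, a log2 difference of 0.06 ± 0.16. KO replicate 3 was the highest and KO replicate 2 the lowest library for each of these 3 genes, so the KO values enclosed the WT values. Rpl12, the 4th protein of the stalk base, lay 0.21 ± 0.13 higher, and none of the 4 was called. Rpl5 and Rpl11 carry 5S rRNA into the subunit and, when free, bind MDM2 and so stabilise p53. Rpl5 had 91.6, 76.5 and 75.0 in WT and 86.9, 71.1 and 95.9 in KO, and Rpl11 had 63.2, 63.4 and 60.6 in WT and 73.0, 55.4 and 73.7 in KO. Both had KO replicate 2 lowest and KO replicate 3 highest, with log2 differences of 0.06 ± 0.16 and 0.10 ± 0.14. The 8 members around the peptide tunnel (Rpl4, Rpl17, Rpl19, Rpl23a, Rpl26, Rpl31, Rpl35 and Rpl39) were all higher by their means and none was called, with a median of 0.15.

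In the small subunit, 25 of 31 members were higher in KO by their means, with a median log2 difference of 0.10. Rps6, the substrate of the mTORC1-driven kinase S6K, had 273, 245 and 241 scaled FPKM in WT and 298, 236 and 330 in KO (0.17 ± 0.17, limma adjusted p = 0.845). Rpsa, which also acts as a laminin receptor, had 189, 180 and 185 in WT and 213, 176 and 220 in KO (0.13 ± 0.14, limma adjusted p = 0.857). In both genes KO replicates 1 and 3 lay above and KO replicate 2 below all WT values. Rps19 differed by 0.24 ± 0.13 (limma adjusted p = 0.693), and here all 3 KO values lay above the WT values, KO replicate 2 by the least. Rps10 had 98.0, 102 and 115 in WT and 137, 115 and 116 in KO, with no overlap but with the lowest KO value near the highest WT value (0.23 ± 0.13, limma adjusted p = 0.732). In the head, 11 of 14 members were higher by their means with a median of 0.08, and in the body and platform 13 of 16 with a median of 0.10. None of either group was called.

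Of all tested members, 5 had every KO value above every WT value (Rpl18, Rpl41, Rps10 and Rps19 among them), and 0 had every KO value below. Among all tested genes 6.53% and 7.5% had such a pattern, so 5 of 79 is near the background. The 5 lower members of smallest p were close to 0 apart from Rpl3l. Rps14 had 143, 126 and 111 in WT and 130, 104 and 134 in KO (-0.05 ± 0.16). Rps16 had 88.9, 70.1 and 72.7 against 82.1, 59.7 and 84.1 (-0.04 ± 0.17), and Rps28 had 21.4, 17.9 and 27.3 against 20.2, 20.6 and 23.2 (-0.04 ± 0.17). Rps15a, whose values stand above, differed by -0.04 ± 0.18. Genotypes overlapped for all 5, with limma adjusted p from 0.849 to 0.976. The 18 members in which mutations cause Diamond-Blackfan anaemia, a failure of red-cell production, had 14 higher by their means, 0 called and a median of 0.11, the same as all members. The 4 members on the X chromosome (Rpl10, Rpl36a, Rpl39 and Rps4x), of interest because KO replicate 3 had Xist, had a median of 0.08 with none called, and leaving them out left the median over the other members at 0.11.

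Of the 7 ribosomal genes outside the name rule, 6 were higher by their means and 0 were called. Fau, a ubiquitin-like fusion to RPS30, had 116, 99.7 and 102 scaled FPKM in WT and 131, 105 and 120 in KO (0.16 ± 0.14), and Rack1, a scaffold on the small-subunit head, had 41.0, 35.2 and 30.7 in WT and 37.8, 32.8 and 39.9 in KO (0.05 ± 0.15). Both overlapped between genotypes. Rps27rt, an intronless copy of Rps27, lay apart at a low level, with 1.03, 1.18 and 1.09 in WT and 2.39, 1.56 and 2.39 in KO (0.69 ± 0.18, limma adjusted p = 0.284). It was chosen after its values were seen.

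KO hearts differed among themselves in ribosomal protein genes by more than the genotype means differed. Summed over the members, the scaled FPKM was 9474, 8907 and 9395 in WT replicates 1 to 3 and 10764, 8677 and 11296 in KO replicates 1 to 3. Both the lowest and the highest sum were in KO hearts, and the ratio of the KO to the WT mean was 1.11. The mean deviation of the 79 tested members from their own means over the 6 libraries was -0.01, -0.12 and -0.05 in WT and 0.14, -0.19 and 0.22 in KO on the log2 scale. KO replicate 3 was above the gene's mean for 78 of 79 members and the highest library for 54. KO replicate 2 was above it for 6 and the lowest library for 42, and 33 members had both extremes in these KO hearts. Once the median deviation of the members in each library was taken off, the remaining SD had a median of 0.12 and was under 0.25 for 77 of 79. The exceptions were Rpl29 (0.39) and Rpl3l (0.37). The members' median SD within a genotype, 0.20, was close to the 0.22 of all tested genes.

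**Figure D3:**
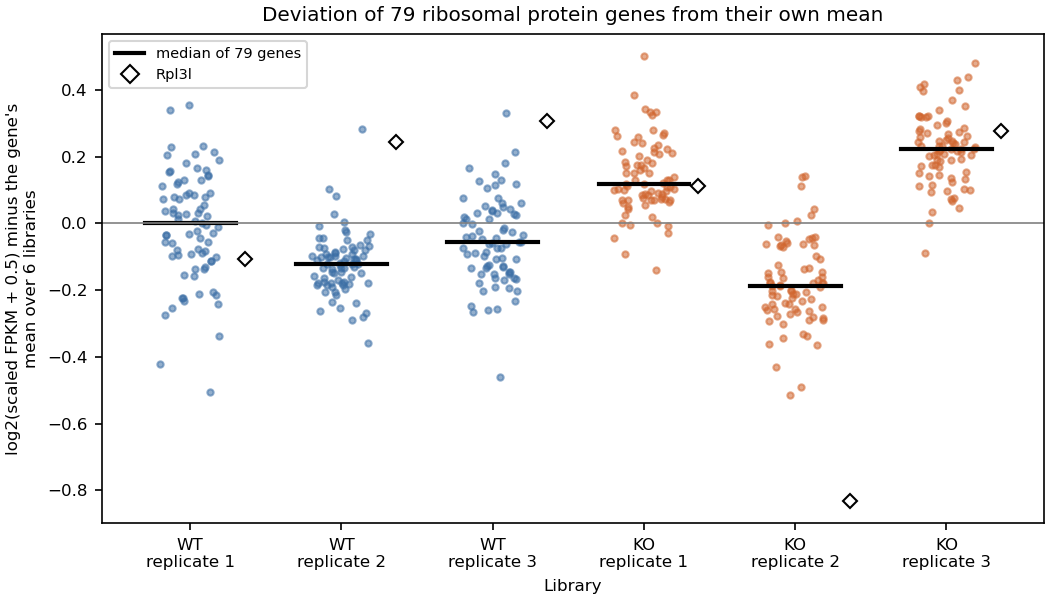
Deviation of each of 79 ribosomal protein genes from its own mean over 6 libraries (log2 scale, vertical axis) by library, with WT in blue, KO in orange, a bar for the median and an open diamond for Rpl3l. The genes move up together in KO replicates 1 and 3 and down together in KO replicate 2, in which Rpl3l lies far below the others.

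Genes of oxidative phosphorylation and of the mitochondrial ribosome were low and high in the same KO hearts. The 39 short nuclear genes of oxidative phosphorylation, with a median transcript length of 547 bases against 632 for the ribosomal protein genes, had mean deviations of -0.25, 0.02 and 0.22 in WT and 0.16, -0.49 and 0.34 in KO, and 0 were called. The 78 mitochondrial ribosomal protein genes, nuclear genes for the separate ribosome of the mitochondrion, had -0.17, 0.02 and 0.09 in WT and 0.09, -0.26 and 0.23 in KO. They were longer and less abundant, with a median length of 848 bases. Their median was 12.9 scaled FPKM, against 79.1 for the cytosolic ribosomal protein genes. In these 3 gene groups KO replicate 2 was the lowest and KO replicate 3 the highest library. Cardiomyocyte markers summed to 16548, 25187 and 27923 scaled FPKM in WT replicates 1 to 3 and to 24884, 18020 and 26803 in KO replicates 1 to 3, and fibroblast markers to 1926, 1200 and 1088 and to 1753, 2249 and 1251. WT replicate 1 and KO replicate 2 had the lowest cardiomyocyte and the highest fibroblast sums. The members' deviation was lowest in KO replicate 2 but near 0 in WT replicate 1. The part of cell mix in these library differences was not tested.

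Rpl3l was, after Rpl29, the member whose pattern over hearts left the largest remaining SD. It had 36.7, 46.8 and 49.0 scaled FPKM in WT replicates 1 to 3 and 42.8, 22.0 and 48.0 in KO replicates 1 to 3. KO replicate 2 was far below all other hearts, and the other KO values lay within the WT range. The log2 difference was -0.30 ± 0.29 (95% interval -0.97 to 0.38, limma adjusted p = 0.849), and without KO replicate 2 it was 0.05. Rpl3, its partner used in most tissues, had 66.6, 54.2 and 52.2 in WT and 65.3, 61.7 and 70.8 in KO (0.20 ± 0.14, limma adjusted p = 0.782). The coding sequences of the pair are 73.4% identical. Their means over 6 libraries were 40.9 and 61.8 scaled FPKM, a scale per transcript length. The log2 ratio of Rpl3l to Rpl3 was -0.85, -0.21 and -0.09 in WT and -0.60, -1.47 and -0.56 in KO. The ratio was lowest in KO replicate 2 and next lowest in WT replicate 1. Its mean was -0.38 ± 0.41 (SD, n = 3) in WT and -0.88 ± 0.51 in KO, a difference of -0.49 (two-sided exact permutation p = 0.3, adjusted p = 0.4 over 7 pairs, smallest possible p 0.1). Without KO replicate 2 the difference was -0.20.

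A second muscle isoform followed the same hearts. Eef1a2 encodes the elongation factor form of adult muscle and neurons, and Eef1a1 the form of most other cells. Eef1a2 had 277, 376 and 391 scaled FPKM in WT and 330, 255 and 354 in KO. The log2 ratio of Eef1a2 to Eef1a1 was -1.93, -1.17 and -1.07 in WT and -1.72, -2.21 and -1.39 in KO, a difference of -0.38 (exact permutation p = 0.3, adjusted p = 0.4). For both isoform pairs and for the cardiomyocyte sum, WT replicate 1 and KO replicate 2 were the 2 lowest hearts. The part of cardiomyocyte content in these ratios was not tested.

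**Figure D4:**
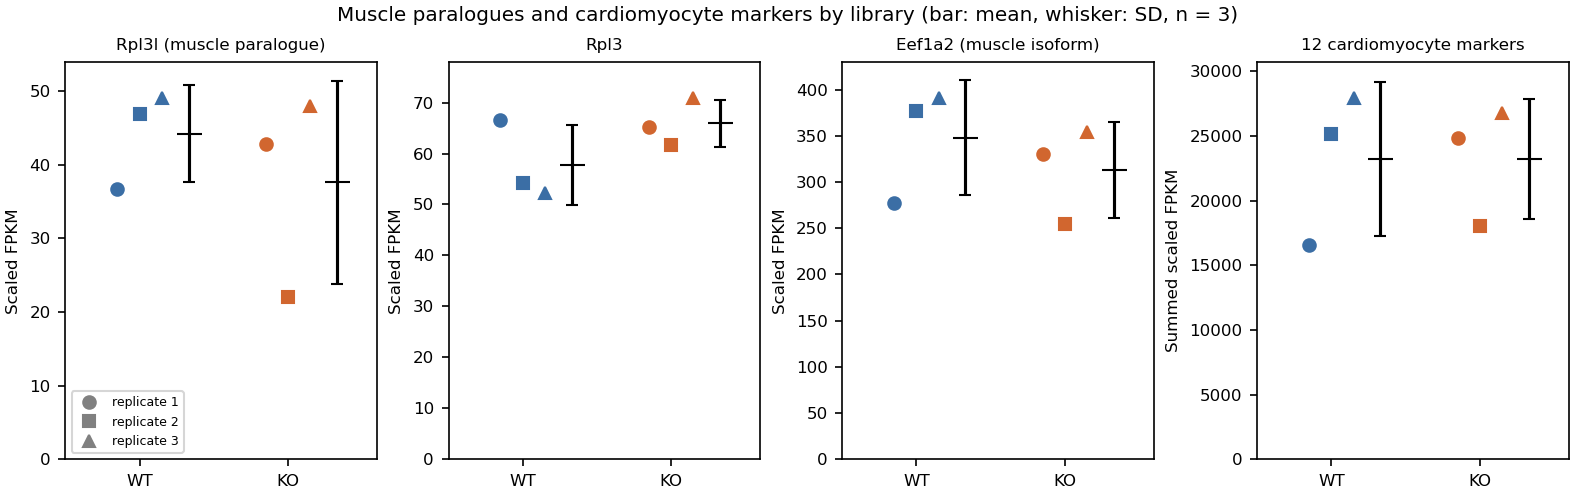
Scaled FPKM of Rpl3l, Rpl3 and Eef1a2 and the summed scaled FPKM of 12 cardiomyocyte markers in each library, with the mean and SD of 3 libraries per genotype and the replicate given by the symbol's shape. Rpl3l (22.0), Eef1a2 and the markers are low in KO replicate 2, in which Rpl3 (61.7) is not.

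The ratios of the other paralogue pairs overlapped between genotypes. The log2 ratio of Rps27l, a p53 target, to Rps27 was -0.96, -1.13 and -1.23 in WT and -1.27, -0.74 and -0.67 in KO, a difference of 0.22 (exact permutation p = 0.4). Rps27l itself had 41.1, 33.6 and 31.7 scaled FPKM in WT and 37.8, 35.2 and 51.2 in KO, and Rps27 had 80.4, 74.1 and 75.2 in WT and 91.7, 59.2 and 81.8 in KO. The log2 ratio of Rpl36al, an autosomal copy, to the X-linked Rpl36a was -0.32, -0.47 and -0.47 in WT and -0.69, -0.81 and -0.46 in KO, a difference of -0.23 (exact permutation p = 0.3). Rpl36a had a mean of 42.9 ± 1.30 scaled FPKM in WT and 49.9 ± 4.97 in KO (SD, n = 3). The ratio to their partners differed by -0.30 for Rpl22l1 (exact permutation p = 0.3), by -0.19 for Rpl7l1 (exact permutation p = 0.2) and by -0.19 for Rps4l (exact permutation p = 0.4). All 7 pairs had an adjusted p of 0.4 over the pairs, and with 3 hearts a genotype none could have gone below 0.1 before adjustment.

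The machinery that makes and controls ribosomes was read from gene lists chosen with earlier results of these data known. No gene of these lists was called in the main fit. Of 22 translation factors and related messages known to carry a TOP motif, 16 were higher by their means, with a median log2 difference of 0.09. Among them Pabpc1, the poly(A)-binding protein, had 63.5, 60.7 and 61.3 scaled FPKM in WT and 84.7, 93.4 and 69.1 in KO. All its KO values lay above the WT values, with KO replicate 2 the highest rather than the lowest (0.40 ± 0.14, limma adjusted p = 0.466). Among the 22, 3 had every KO value above every WT value and 0 below, against 6.53% and 7.5% of all tested genes. Btf3, a subunit of the complex that binds nascent chains, had 72.9, 61.9 and 61.8 in WT and 89.7, 69.8 and 81.2 in KO (0.29 ± 0.14, limma adjusted p = 0.662).

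Of 57 ribosome biogenesis factors, 23 were higher by their means, with a median of -0.02. Nsa2, a factor of large-subunit assembly, had 38.5, 37.8 and 36.7 scaled FPKM in WT and 47.1, 41.7 and 42.1 in KO (0.21 ± 0.11), and Gtpbp4, a nucleolar GTPase, had 4.20, 4.30 and 4.28 in WT and 3.61, 3.49 and 3.95 in KO (-0.19 ± 0.12). Neither overlapped between genotypes, and their limma adjusted p were 0.693 and 0.744. Both were picked for their small p. Of the 57 factors, 2 had every KO value above every WT value and 3 every KO value below. Among all tested genes 6.53% and 7.5% had such a pattern. Of the 8 chaperones that carry single ribosomal proteins, 2 were higher by their means. Pdcd2, the chaperone of RPS2, differed by -0.33 ± 0.21 and Heatr3, which helps import RPL5, by -0.21 ± 0.14, with overlapping groups. Of 27 genes of RNA polymerases I and III, which transcribe ribosomal RNA, 15 were higher by their means, with a median of 0.01. Rrn3, the factor that brings polymerase I to its promoter, had 11.3, 11.2 and 13.4 in WT and 8.78, 10.1 and 9.67 in KO without overlap (-0.32 ± 0.12, limma adjusted p = 0.529). Polr3k, a subunit of polymerase III, had 4.36, 4.55 and 4.18 in WT and 5.16, 4.99 and 6.06 in KO, also without overlap (0.28 ± 0.12, limma adjusted p = 0.621). Of the 27 polymerase genes, 2 were higher and 2 lower without overlap, near the shares of all tested genes.

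Among 21 genes of mTORC1 and MYC control, 11 were higher by their means. At an unadjusted limma p under 0.05, 2 were higher and 2 lower, against 3.8% and 4.68% of all tested genes. Every KO value lay above every WT value for 5 and below for 4, against 6.53% and 7.5%. The 2 genes of smallest p were both higher. Ddit4, which encodes REDD1, a stress-induced inhibitor of mTORC1, had 14.9, 17.6 and 11.2 scaled FPKM in WT and 57.4, 57.2 and 30.7 in KO. The lowest KO heart lay well above the highest WT heart, and the log2 difference was 1.66 ± 0.27, with an limma adjusted p of 0.073. Without KO replicate 3 the limma adjusted p was 0.032, and with other libraries left out it rose to as much as 0.231. Max, the partner of MYC on DNA, had 14.0, 9.35 and 10.7 in WT and 21.6, 20.9 and 18.8 in KO (0.84 ± 0.16, limma adjusted p = 0.123). Of the 78 mitochondrial ribosomal protein genes, 47 were higher by their means, with a median of 0.03 and 0 called. Mrpl53 had 4.36, 1.01 and 3.49 in WT and 4.25, 4.75 and 14.0 in KO, where a single KO heart was high (1.21 ± 0.55, limma adjusted p = 0.626), and Mrps26 had 4.60, 4.98 and 5.86 in WT and 7.19, 5.72 and 6.42 in KO (0.30 ± 0.14, limma adjusted p = 0.646).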

How the data were processed

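Libraries of 3 WT and 3 KO infarcted hearts were prepared, per the labels' protocols, with the TruSeq RNA kit of Illumina, and samples were grouped by the genotype in their labels. The authors deposited FPKM for each gene under a title that speaks of counts. Bowtie 0.12.2 and the builds mm8 and mm9 appear in the submitters' processing notes. For the quantifier, annotation, filters and use of strand, nothing is given in the sources used here. Of 52550 rows, 52403 had an identifier in GENCODE M21 (GRCm38), 93.3% with the same version; symbols and gene types come from there. All 37 mitochondrial genes are listed at 0.

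FPKM were divided by an unweighted trimmed mean of log2 ratios (trims 0.3 and 0.05). Genes with FPKM of at least 0.5 in 3 libraries (14656) were fitted on log2(scaled FPKM + 0.5) with limma 3.58.1 in R 4.3.3 (genotype only, trend, two-sided, Benjamini-Hochberg over all tested genes), and called at an adjusted p under 0.05. This scale understates changes of low genes. Since depths were estimated from FPKM, no interval was built on counts. Nothing says that the hearts came from separate litters or sessions, so p-values reflect only the spread among these hearts, which may be technical in part. Near-identical copies were found with blastn 2.17.0 at 95% identity over 80% of the coding sequence. In simulated data for this comparison (14352 genes), the test recovered 11 of 66 genes with a log2 change of 0.5, 50 of 59 with a change of 1 and 64 of 65 with a change of 2. Of 127 calls, 2 were genes left unchanged. The simulated noise was independent between genes, with an SD set by the gene's level alone. Shifts shared by a group of genes in a library were not simulated, so recovery among the ribosomal protein genes may differ.

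Members and lists were chosen with earlier results of these data known. Members named with values are the 5 of smallest p in each direction, the 3 highest and 3 lowest in level, paralogue pairs and 8 set members. For other lists they are the 2 genes of smallest p. A few of the genes so chosen are not reported here. Alternatives were other scalings, filters, pseudocounts (0.1 and 1), a robust fit, a replicate block and each library left out. Members without copies and members off the X chromosome were taken as alternatives chosen after seeing the data.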

Additional observations from a re-analysis of the deposited data

How the results depend on the processing

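In 17 fits (the main settings and 16 alternatives) 0 ribosomal protein genes were called. Over all genes, 40 were called higher and 15 lower. Without a filter these were 17 and 3, with replicate number as a block 24 and 18, and with each library left out in turn 9 to 27 and 3 to 9. The median log2 difference of the members lay between 0.013 and 0.24 with a library left out. For the members without near-identical copies it was 0.034, over only 5 tested genes, of which Rpl3l was the lowest at -0.30. For the 17 members with 10 or more copies it was 0.11. Nothing in the labels pairs the hearts by replicate number. Deviations of same-numbered hearts correlated at 0.0076, -0.036 and 0.18, and those of differently numbered hearts at -0.20 to 0.19. Deviations within a group of 3 sum to 0, so these correlations cannot decide whether the hearts are paired. In limma 0 members reached an unadjusted p under 0.05 with the block, and 1 did without it. With the block Ddit4 was called (limma adjusted p = 0.027), the range over its alternatives being 0.027 to 0.231.

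Of 48 named genes, 1 changed sign at other settings, Rps27 to 0.0013 without a filter. With a library left out, 20 changed sign, and the cause was not tested. Their log2 differences ranged as follows. Rack1 ran from -0.050 to 0.16, Rpl10 from -0.18 to 0.13, Rpl22l1 from -0.0082 to 0.10, Rpl23a from -0.065 to 0.22, Rpl36al from -0.15 to 0.14, Rpl39 from -0.052 to 0.30 and Rpl3l from -0.51 to 0.048. Rpl5 ran from -0.037 to 0.18, Rpl7 from -0.057 to 0.24, Rplp0 from -0.054 to 0.12, Rplp1 from -0.027 to 0.21, Rplp2 from -0.022 to 0.21 and Rps13 from -0.11 to 0.16. Rps14 ran from -0.14 to 0.070, Rps15a from -0.15 to 0.12, Rps16 from -0.13 to 0.11, Rps27 from -0.13 to 0.18, Rps28 from -0.18 to 0.12, Rps4l from -0.29 to 0.0049 and Rps4x from -0.10 to 0.22. With 3 hearts a genotype, 42 of 79 members had a 95% interval between -0.5 and 0.5. In the simulated data, whose noise was independent between genes, 11 of 66 genes with a log2 change of 0.5 were recovered.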
